A study of Mus musculus with 8 samples.

Results

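Oxidative phosphorylation is described here through 89 genes measured in 8 arrays of mouse malignant peripheral nerve sheath tumours, out of 19938 genes in the table. A gene was included if its probe set was annotated to a single symbol beginning with Nduf followed by a, b, c, s or v, Sdha to Sdhd, or beginning with Uqcr, Cox4 to Cox8 or Atp5. Of the 89 genes, 81 encode subunits of the complexes: 34 of complex I, 4 of complex II, 8 of complex III, 18 of complex IV and 17 of complex V. The same pattern also takes in 7 Ndufaf genes, which encode assembly factors of complex I and not subunits, and Cox7a2l, which joins complexes III and IV into supercomplexes. Ndufa4 and Ndufa4l2 were counted with complex IV, where the Ndufa4 protein is now placed. Another 6 probe sets of Cox7c, Ndufb4 and Ndufs5 carry several symbols and were left out by the rule (Ndufs5 has another probe set, Cox7c and Ndufb4 do not).

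The tumours came from NPcis mice, which carry mutations of Nf1 and Trp53 on the same chromosome and form tumours after losing the remaining copies. All 4 groups share this genotype and hold 2 arrays each: vehicle; rapamycin, an mTORC1 inhibitor, at 5 mg/kg into the peritoneum; PD-0325901, a MEK inhibitor, at 1.5 mg/kg per oral dose on a schedule of 2 doses a day; and both drugs at these doses, called the combination. Treatment lasted 14 hours, and ages are not given. The labels do not say that the arrays of a group come from separate animals, so the p-values measure only the spread between these arrays, which may be technical. The RNA is from whole tumours, where fewer cells of a type and less RNA per cell cannot be told apart. The values are log2 expression with no detection call, so the presence of Schwann lineage RNA could not be read from them: Sox10, its defining factor, was between 7.85 and 8.17.

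Complexes I and II pass electrons from NADH and succinate to ubiquinone, complex III passes them to cytochrome c, and complex IV reduces oxygen. The proton gradient built by complexes I, III and IV drives complex V, the ATP synthase. Nuclear genes encode most subunits, and the factors NRF1, GABPA and YY1 with coactivators of the PGC-1 family are known to control many of them. mTORC1 is known to act on mitochondrial gene expression through YY1 with PGC-1alpha, and on translation of mitochondrial proteins. The comparisons ask whether subunit transcripts differ under inhibition of mTORC1, of MEK, or of both.

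No subunit or assembly factor passed the threshold under any treatment, and for most members the vehicle arrays overlapped with those of each treatment. In limma with Benjamini-Hochberg adjustment over all genes, 0 of 89 members passed at an adjusted p of 0.05 for rapamycin, PD-0325901 or the combination against vehicle, as did 0 of 19938 genes (0% in each comparison). The smallest adjusted p among members was 0.964, 0.617 and 0.359 for these comparisons. The median log2 difference of the 89 members was -0.08 for rapamycin, -0.02 for PD-0325901 and -0.18 for the combination, beside -0.02 over all genes in each comparison. The median standard error (SE) of a member's difference was 0.20. Member differences ran from -0.48 to 0.90 with rapamycin, from -0.64 to 0.64 with PD-0325901 and from -0.88 to 0.62 with the combination. Over all 19938 genes, a far larger set, they ran from -3.73 to 5.20, -3.67 to 3.52 and -3.64 to 4.31.

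**Figure D1:**
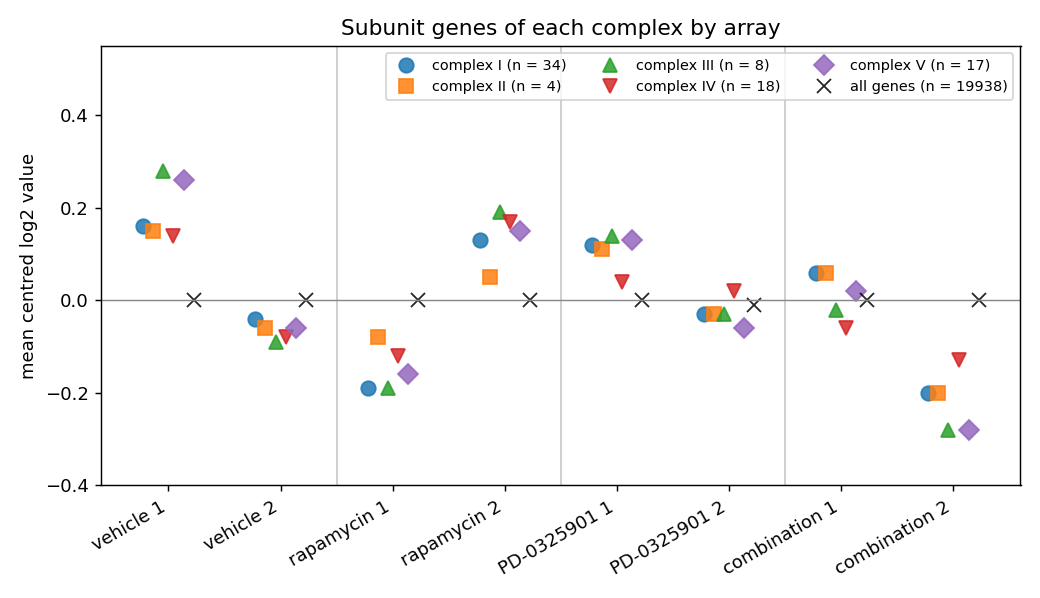
Mean log2 value of the subunit genes of each complex by array, each gene centred on its mean over the 8 arrays (y axis), with all genes as crosses. Each complex is lowest in combination array 2 and next lowest in rapamycin array 1, and complexes I, III, IV and V are highest in vehicle array 1 and rapamycin array 2. The 2 arrays of a group mostly lie apart, but for complex IV with PD-0325901 they lie close (0.04 and 0.02).

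The subunit genes mostly differed between arrays of 1 group. Exceptions were complex IV with PD-0325901, where array 1 was above array 2 for 9 of 18 genes, and complex II with rapamycin, for 2 of 4. Mean centred log2 values of the 81 subunits were 0.19 and -0.06 in the vehicle arrays, -0.16 and 0.14 with rapamycin, 0.11 and -0.02 with PD-0325901, and 0.02 and -0.21 with the combination. The rapamycin arrays thus lay on either side of vehicle array 2, combination array 1 lay between the vehicle arrays, and combination array 2 was the lowest of all. Vehicle array 1 was above vehicle array 2 for 63 of 81 subunits, against 53.3% of all genes. Rapamycin array 2 was above rapamycin array 1 for 64 of 81 (52% of all genes), PD-0325901 array 1 above array 2 for 66 (55.2%) and combination array 1 above array 2 for 65 (46.2%). Combination array 2 held the lowest value of the 8 arrays for 39 of the 81 subunits (12.3% of all genes) and rapamycin array 1 for 24 (16.6%). Vehicle array 1 held the highest for 29 (16.9%). Over the 89 members the pooled within-group SD of the mean log2 value was 0.16, close to the largest median difference between groups.

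Other gene lists moved with these arrays, and their part in the result was not tested. All 11 measured proliferation markers, summarised as mean centred log2, had 0.45 and 0.38 in the vehicle arrays, -0.66 and 0.53 with rapamycin, 0.11 and -0.35 with PD-0325901, and -0.08 and -0.39 with the combination. They were therefore lowest in rapamycin array 1, where the subunits were also low. That array also stood apart in the mean of 10 adipocyte markers, at 1.75 against -0.45 to 0.16 elsewhere. The fat hormone Adipoq was 10.26 there and between 6.26 and 6.99 elsewhere. Not all of the 10 went this way. Ucp1 was lowest in that array (6.29), and Cidea was 6.37 there and between 6.36 and 6.58 elsewhere. The mean of 12 fibroblast markers was lowest in vehicle array 1 (-0.82) and rapamycin array 2 (-0.73), the arrays with the highest subunit values. Some of the 12 did not follow this. In these arrays Mfap5 was 9.70 and 9.88 and Clec3b 7.47 and 7.37, above vehicle array 2 (9.07 and 7.19).

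Under the combination the members lay mostly below vehicle, in all 5 complexes. The difference was below 0 for 67 of 89 members, against 53.7% of all genes, and for 63 of the 81 subunits. Medians were -0.16 for complex I, -0.14 for complex II, -0.26 for complex III, -0.16 for complex IV and -0.21 for complex V, with all 8 members of complex III and 16 of 17 of complex V lower. Both combination arrays lay below both vehicle arrays for 28 of 89 members, where 22.3% of all genes did so, and above them for 1 member (17.9% of all genes). At an unadjusted p under 0.05, 6 members were lower and 1 higher, beside 4% and 5.08% of all genes. The median over the members moved with single arrays. It became -0.04 if vehicle array 1 was left out, -0.03 if combination array 2 was, and -0.29 if combination array 1 was. Beside this, all 11 proliferation markers lay below vehicle in both combination arrays (median -0.60), and 11 of 12 T and NK cell markers had a higher mean (median 0.79); their part was not tested.

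The member medians for rapamycin alone and PD-0325901 alone were smaller in size than that for the combination. When single arrays were left out, the ranges of the 3 medians overlapped. With rapamycin 59 of 89 members were below vehicle (54.1% of all genes). The median turned to 0.04 when vehicle array 1 was dropped and to 0.05 when rapamycin array 1 was, and was -0.19 and -0.24 when vehicle array 2 or rapamycin array 2 was dropped. At an unadjusted p under 0.05 it was 1 member in each direction, beside 2.77% of all genes higher and 2.15% lower. Both rapamycin arrays were below both vehicle arrays for 17 members (17.9% of all genes) and above for 1 (12.5%). With PD-0325901 46 of 89 were lower (53.8% of all genes), again with 1 member in each direction at an unadjusted p under 0.05 (3.47% higher and 2.38% lower of all genes). The arrays did not overlap for 13 lower and 4 higher members, beside 20.9% and 17.6% of all genes. The median was 0.09 when vehicle array 1 was dropped, -0.10 when vehicle array 2 or PD-0325901 array 1 was, and 0.03 when PD-0325901 array 2 was. Besides the assembly factors below, Ndufb3 (-0.40, SE 0.17) was among the 3 lower members of smallest p for PD-0325901 and Ndufa6 (0.35, SE 0.23) among the 3 higher ones; both are accessory subunits of complex I. All 3 comparisons share the vehicle arrays.

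**Figure D2:**
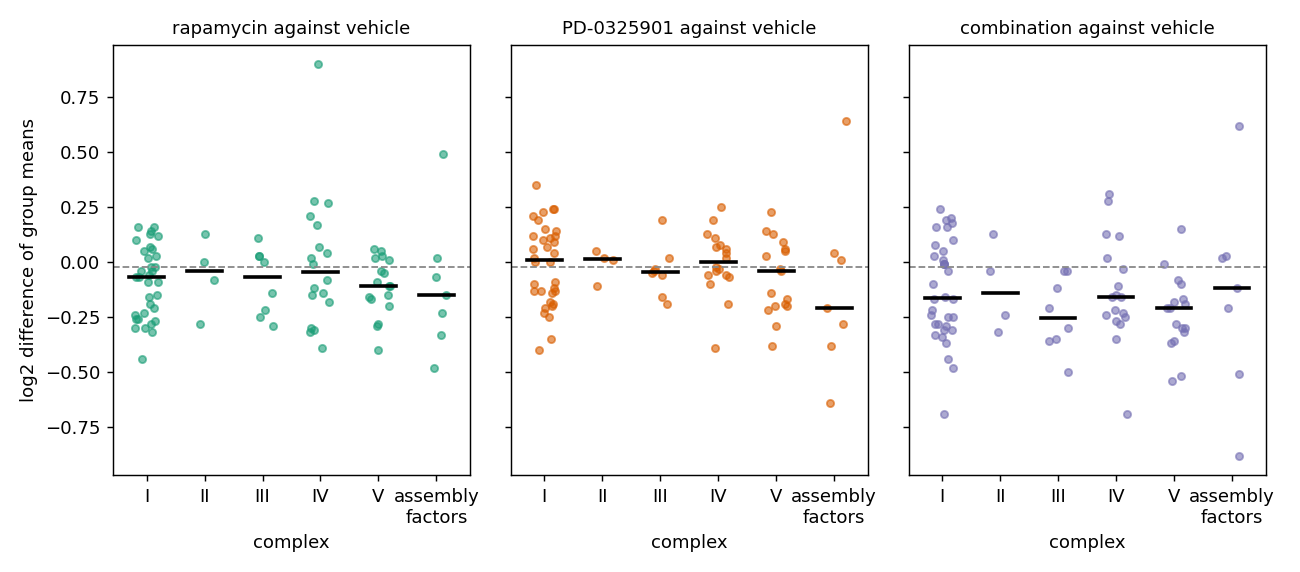
Log2 difference of group means (y axis) for each member, by complex, for the 3 treatments against vehicle; bars mark the median of a complex, the dashed line the median of all genes. Members spread around the line with rapamycin and PD-0325901 and lie mostly below it with the combination, where the medians of the 5 complexes run from -0.26 to -0.14; Cox7a2l is not drawn.

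The catalytic and core subunits mostly overlapped between groups. Sdhb, the iron-sulfur subunit of succinate dehydrogenase in complex II, was 10.58 and 10.21 with vehicle, 10.09 and 10.14 with rapamycin, 10.55 and 10.28 with PD-0325901, and 10.22 and 9.93 with the combination. Its rapamycin arrays lay below both vehicle arrays, by -0.28 on average, and combination array 1 reached just above vehicle array 2. Uqcrc1, a core subunit of complex III, was 11.40 and 10.64 with vehicle, 11.15 and 11.10 with rapamycin, 11.10 and 10.88 with PD-0325901, and 11.22 and 10.57 with the combination. Here the vehicle arrays spanned nearly all other values. Atp5a1, the alpha subunit of the ATP synthase, was 11.93 and 11.49 with vehicle, 11.36 and 12.16 with rapamycin, 11.92 and 11.76 with PD-0325901, and 11.60 and 11.41 with the combination, so that the rapamycin arrays held both its lowest and its highest value. Of the other core subunits, Uqcrc2 of complex III had -0.50 (SE 0.17) with the combination, Ndufv2 of complex I -0.34 (SE 0.18) and Atp5b, the catalytic beta subunit of the ATP synthase, -0.30 (SE 0.18), each with both arrays below vehicle. Without vehicle array 1 the last 2 were -0.17 and -0.09, and without vehicle array 2 both were -0.52. The Rieske protein Uqcrfs1 (-0.04, SE 0.23), Ndufs3 (0.08, SE 0.23), Sdha (0.13, SE 0.24), Sdhc (-0.04, SE 0.16), Sdhd (-0.24, SE 0.19), Cox5a (-0.25, SE 0.22) and Cox5b (0.12, SE 0.20) overlapped with vehicle.

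Among complex I subunits the smallest p belonged to an accessory one. Ndufab1, the mitochondrial acyl carrier protein, which is a subunit of complex I and also serves lipoic acid and iron-sulfur cluster synthesis, was 9.83 and 9.77 with vehicle, 9.36 and 9.71 with rapamycin, 9.63 and 9.51 with PD-0325901, and 9.15 and 9.07 with the combination. All 6 treated arrays lay below both vehicle arrays, and the combination arrays were the lowest. Its difference for the combination was -0.69 (SE 0.14, limma adjusted p = 0.359), the smallest p among the members, with -0.27 for rapamycin (SE 0.14) and -0.23 for PD-0325901 (SE 0.14). The second Ndufab1 probe set gave -0.62, -0.27 and -0.22. The catalytic subunits Ndufs1 (9.39 and 9.79 with vehicle, 9.47 and 9.15 with the combination) and Ndufv1 (10.69 and 10.63 with vehicle, 10.67 and 10.20 with the combination) overlapped between these groups. With rapamycin Ndufv1 was 10.39 and 10.47, below both vehicle arrays (-0.23, SE 0.18), while Ndufs1 overlapped.

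Assembly factors of complex I lay on both sides of vehicle. Ndufaf4, a chaperone for early assembly of complex I, was 8.69 and 8.72 with vehicle, 7.89 and 8.57 with rapamycin, 8.12 and 8.01 with PD-0325901, and 7.84 and 7.81 with the combination. Every treated array lay below the vehicle arrays, rapamycin array 2 only slightly. The differences were -0.48, -0.64 and -0.88 (SE 0.22 each; limma adjusted p = 0.964, 0.756 and 0.404); that for rapamycin was -0.14 without rapamycin array 1 and -0.82 without rapamycin array 2.

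Ndufaf3, which works with Ndufaf4 in the same step of assembly, was higher in every treated array. It was 8.77 and 8.64 with vehicle, 9.41 and 8.98 with rapamycin, 9.44 and 9.26 with PD-0325901, and 9.33 and 9.33 with the combination. The differences were 0.49, 0.64 and 0.62 (SE 0.16 each; limma adjusted p = 0.964, 0.617 and 0.409); that for rapamycin was 0.28 without rapamycin array 1. The 7 Ndufaf genes together had a median of -0.12 with the combination, 4 of them lower. All arrays under all 3 treatments lay above vehicle for this 1 member (4.04% of all genes) and below it for 5 members (5.2% of all genes): Ndufab1, Ndufaf4, Ndufaf5, Ndufaf6 and Uqcrh. Uqcrh, the hinge subunit of complex III, had differences of -0.25, -0.19 and -0.30 (SE 0.10 each). Ndufaf6 had -0.33, -0.28 and -0.51 (SE 0.16 each), and Ndufaf5, a hydroxylase acting on a complex I subunit, had -0.23, -0.21 and -0.21 (SE 0.13 each). Both had low mean levels, 7.07 for Ndufaf6 and 7.43 for Ndufaf5, where the median gene was at 8.25. Ndufaf4 was just under that median at 8.21.

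**Figure D3:**
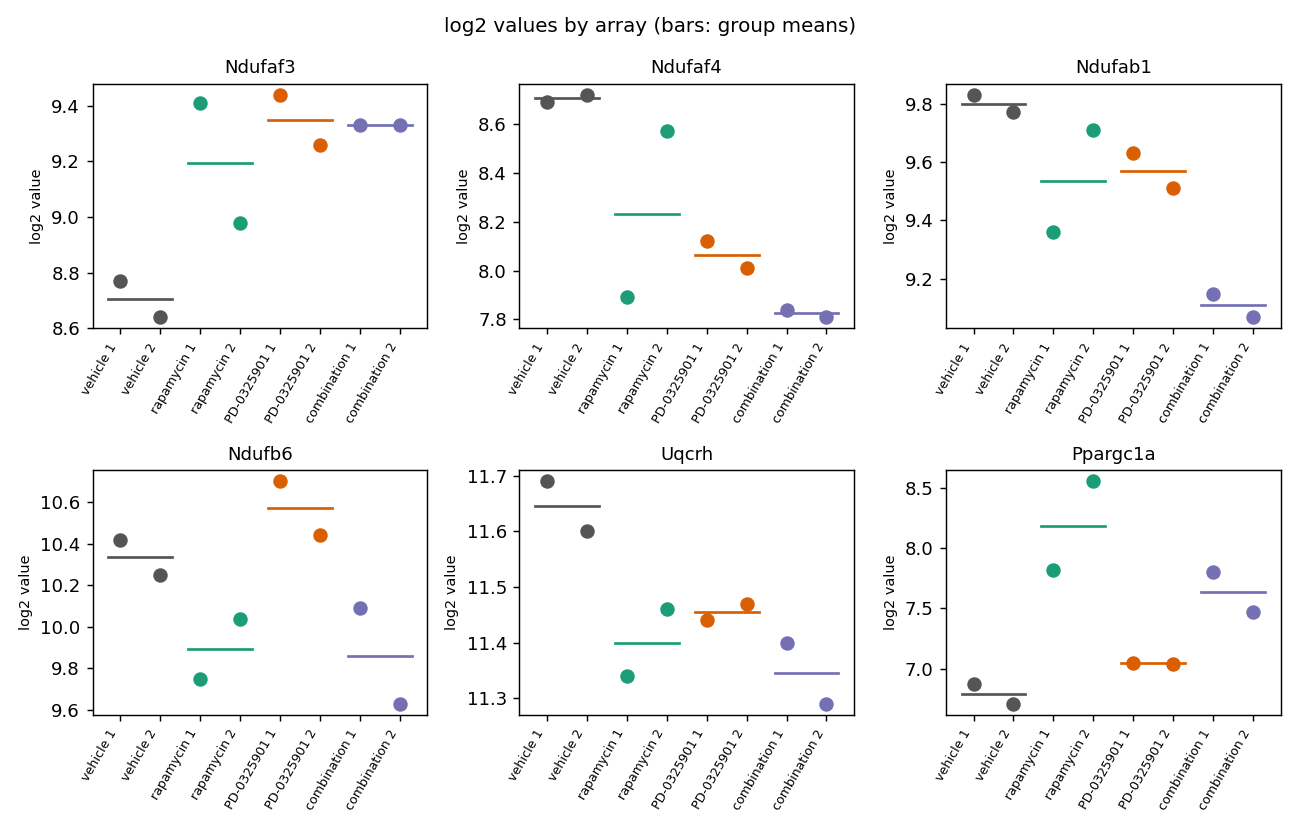
Log2 value (y axis) by array for 5 members and the coactivator gene Ppargc1a; points are arrays, bars are group means of 2 arrays. Ndufaf3 is higher and Ndufaf4, Ndufab1 and Uqcrh are lower in all 6 treated arrays than in either vehicle array, and Ndufb6 is lower and Ppargc1a higher in the 4 arrays with rapamycin.

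The promoters of the 3 members with the smallest p for the combination among those apart from vehicle under all treatments are shown as examples of members described above; none of the 3 passed the test, and the count of members lower under all treatments (5 of 89) was close to the share of all genes given there. Each run is the 250 bases before the transcription start, from RefSeq on GRCm38.p6, 5′ to 3′, and capitals mark a match to a motif of NRF1 (GCGC, any base, TGCGC), ETS factors such as GABPA (CCGGAAG) or YY1 (AANATGGCG), searched on both strands.
Ndufab1, chr7:122101849-122102098, minus strand: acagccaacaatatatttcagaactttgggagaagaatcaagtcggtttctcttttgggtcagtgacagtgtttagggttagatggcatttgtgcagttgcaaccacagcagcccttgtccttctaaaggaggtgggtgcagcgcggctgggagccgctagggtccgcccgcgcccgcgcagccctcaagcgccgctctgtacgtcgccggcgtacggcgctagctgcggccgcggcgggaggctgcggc
Ndufaf4, chr4:24897833-24898082, plus strand: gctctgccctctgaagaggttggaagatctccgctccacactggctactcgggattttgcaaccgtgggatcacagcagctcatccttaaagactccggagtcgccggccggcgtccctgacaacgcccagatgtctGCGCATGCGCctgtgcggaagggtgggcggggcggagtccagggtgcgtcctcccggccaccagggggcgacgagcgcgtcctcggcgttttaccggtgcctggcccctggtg
Ndufaf3, chr9:108567437-108567686, minus strand: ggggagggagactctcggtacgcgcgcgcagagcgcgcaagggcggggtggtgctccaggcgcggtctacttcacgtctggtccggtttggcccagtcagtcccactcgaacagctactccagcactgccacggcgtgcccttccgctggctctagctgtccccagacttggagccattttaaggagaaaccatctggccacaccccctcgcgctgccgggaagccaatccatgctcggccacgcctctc

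Ndufaf4 holds an NRF1 match, and these windows of Ndufab1 and Ndufaf3 hold none of the 3 motifs. In windows of 300 bases, from 250 before to 50 after the start, a promoter was found for 73 of the 89 members. An NRF1 match lay in 18 of these (24.7%, beside 7.85% of 15614 genes of the table with a window), an ETS match in 18 (24.7%, beside 13.6%) and a YY1 match in 10 (13.7%, beside 3.86%). At least 1 of the 3 was present in 12 of 15 complex V promoters and 16 of 31 complex I promoters, but in 3 of 12 of complex IV. No test was made of these shares, and a stretch could count for more than 1 motif.

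Averaged over the presence and absence of PD-0325901, the group means with rapamycin were lower for most members. This main effect, the mean of rapamycin minus vehicle and combination minus PD-0325901, was below 0 for 68 of 89 members (53.8% of all genes), with a median of -0.12 (-0.01 over all genes). In limma 0 members passed (0% of all genes); 8 members were lower and 0 higher at an unadjusted p under 0.05, beside 2.4% and 3.15% of all genes. The median was -0.04 when vehicle array 1 was dropped, -0.06 for rapamycin array 1 or combination array 2, -0.07 for PD-0325901 array 1, and -0.19 for vehicle array 2 or combination array 1. All 11 proliferation markers also had a lower mean (median -0.37) and all 15 skeletal muscle markers a higher one (median 0.56), with 0 passing. The arrays of a group differed. Mean centred muscle values were -0.87 and 1.70 with rapamycin and -0.41 and 0.71 with the combination. They were 0.10 and -0.76 with vehicle and -0.29 and -0.17 with PD-0325901. Proliferation values were highest in rapamycin array 2 (0.53) and lowest in rapamycin array 1 (-0.66). The part of both lists was not tested. All 4 arrays with rapamycin lay below all 4 without it for 4 members, Ndufb6, Ndufa3, Cox4i2 and Cox6b2, where 1.94% of all genes did so, and for 0 members above (1.41%).

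Ndufb6, an accessory subunit in the membrane arm of complex I, had the largest size of these 4. It was 10.42 and 10.25 with vehicle, 10.70 and 10.44 with PD-0325901, 9.75 and 10.04 with rapamycin, and 10.09 and 9.63 with the combination. The main effect was -0.57 (SE 0.14, limma adjusted p = 0.752), and between -0.69 and -0.46 when single arrays were left out. Ndufa3, another accessory subunit of complex I, differed by -0.23 (SE 0.07), with values of 10.33 to 10.51 without and 10.12 to 10.25 with rapamycin. Cox4i2, the hypoxia-inducible form of the subunit IV of cytochrome c oxidase, differed by -0.23 (SE 0.08). Its common form Cox4i1 had a main effect of similar size, -0.19 (SE 0.14), with overlapping arrays. For rapamycin alone against vehicle, both forms had both arrays below vehicle, by -0.31 (SE 0.20) for Cox4i1 and -0.14 (SE 0.11) for Cox4i2.

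The PD-0325901 main effect had a member median smaller in size than that of rapamycin, with overlapping ranges when single arrays were left out. Its median was -0.06, with 58 of 89 lower (54% of all genes), 0 passing in limma (0% of all genes), and 1 higher and 2 lower at an unadjusted p under 0.05 (5.47% and 4.14% of all genes). The median was 0.01 when vehicle array 1 was dropped, 0.02 for rapamycin array 2, 0.00 for combination array 2, -0.11 for vehicle array 2 or combination array 1, and -0.15 for rapamycin array 1. In the fit of 4 arrays against 4, where 22 genes of the table passed, 0 members did. Atp5md, a small membrane subunit of the ATP synthase, was the single member with all 4 PD-0325901 arrays below the other 4 (2.39% of all genes), and 0 lay above (3.34%). It was 11.20 and 10.71 with vehicle, 10.76 and 10.93 with rapamycin, 10.69 and 10.46 with PD-0325901, and 10.67 and 10.20 with the combination, a difference of -0.39 (SE 0.16, limma adjusted p = 0.533). Cox4i1 had 0.32 (SE 0.14) and Atp5c1, the gamma subunit of the rotor, 0.28 (SE 0.12), both overlapping.

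The effect of rapamycin was not shown to differ with PD-0325901. For the interaction 0 members passed in limma (0% of all genes), with 0 at an unadjusted p under 0.05 in either direction (1.03% of all genes higher and 1.14% lower). The interaction was below 0 for 53 of 89 members (48.2% of all genes), with a median of -0.04 beside 0.01 over all genes. The median ran from -0.23 when rapamycin array 1 was dropped to 0.07 when rapamycin array 2 or vehicle array 2 was. Ndufaf3 had -0.51 (SE 0.23), the smallest p among members (-0.30 without rapamycin array 1), and Ndufb3 had 0.48 (SE 0.23).

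Complex IV includes subunits with tissue-specific forms. Cox8b and Cox6a2 encode the forms found in heart and skeletal muscle. Cox8b was 7.55 and 7.13 with vehicle, 7.46 and 9.02 with rapamycin, 7.25 and 7.39 with PD-0325901, and 7.24 and 8.06 with the combination, and this range of 1.89 was the widest of all 89 members. Cox6a2 was 8.16 and 8.26, 8.18 and 8.81, 8.40 and 8.23, and 8.19 and 8.80 in the same order. Rapamycin array 2 and combination array 2 were high for both, and the differences from vehicle had wide errors (0.90, SE 0.53, for Cox8b with rapamycin, 0.12 without rapamycin array 2 and 1.68 without rapamycin array 1).

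The same arrays were high in skeletal muscle RNA, whose part in these values was not tested. The mean log2 level of the 15 skeletal muscle markers, all measured, was 8.44 and 7.57 with vehicle, 7.46 and 10.04 with rapamycin, 8.04 and 8.16 with PD-0325901, and 7.92 and 9.04 with the combination. Skeletal actin Acta1 was 12.18 in rapamycin array 2 and 11.41 in combination array 2, and 8.96 to 11.11 in the other 6. Cox7a1, a further muscle form, was 8.25 and 7.28 with vehicle, 7.06 and 8.18 with rapamycin, 7.61 and 7.73 with PD-0325901, and 7.48 and 7.61 with the combination; it was high in rapamycin array 2 but not in combination array 2. The common forms Cox8a (11.37 to 11.99) and Cox6a1 (10.54 to 11.08) had ranges of 0.62 and 0.55. Cox6b1 lay lower with the combination (-0.28, SE 0.13), while Cox7a2 (-0.15, SE 0.21) and Cox7b (-0.23, SE 0.18) overlapped. The forms known from testis, Cox7b2 and Cox8c, were between 5.64 and 5.81 and between 7.08 and 7.25. Cox6b2, also a testis form, was between 7.22 and 7.89, and its rapamycin main effect was -0.28 (SE 0.10, limma adjusted p = 0.864).

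Ndufa4l2, a hypoxia-induced relative of the complex IV subunit Ndufa4, was lowest with the combination. It was 8.51 and 7.82 with vehicle, 7.94 and 7.60 with rapamycin, 7.57 and 7.98 with PD-0325901, and 7.48 and 7.46 with the combination, a difference of -0.69 (SE 0.26, limma adjusted p = 0.524). Vehicle array 1 was its highest array, and the difference was -0.35 without that array and -1.04 without vehicle array 2. Only with the combination did both arrays lie below both vehicle arrays. The mean level of Ndufa4l2 was 7.8, below the median gene at 8.25, as were those of Cox8b (7.64), Cox7a1 (7.65) and Cox6b2 (7.56). The mean level of 13 hypoxia markers was 10.22 and 9.46, 9.54 and 9.80, 9.21 and 9.55, and 9.05 and 9.16 in the same order, with 12 of 13 lower under the combination (median -0.57) and 0 passing. These markers were also highest in vehicle array 1; their part was not tested. Ndufa4 itself was 9.91 and 9.99 with vehicle and 9.99 and 9.37 with the combination, and overlapped.

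**Figure D4:**
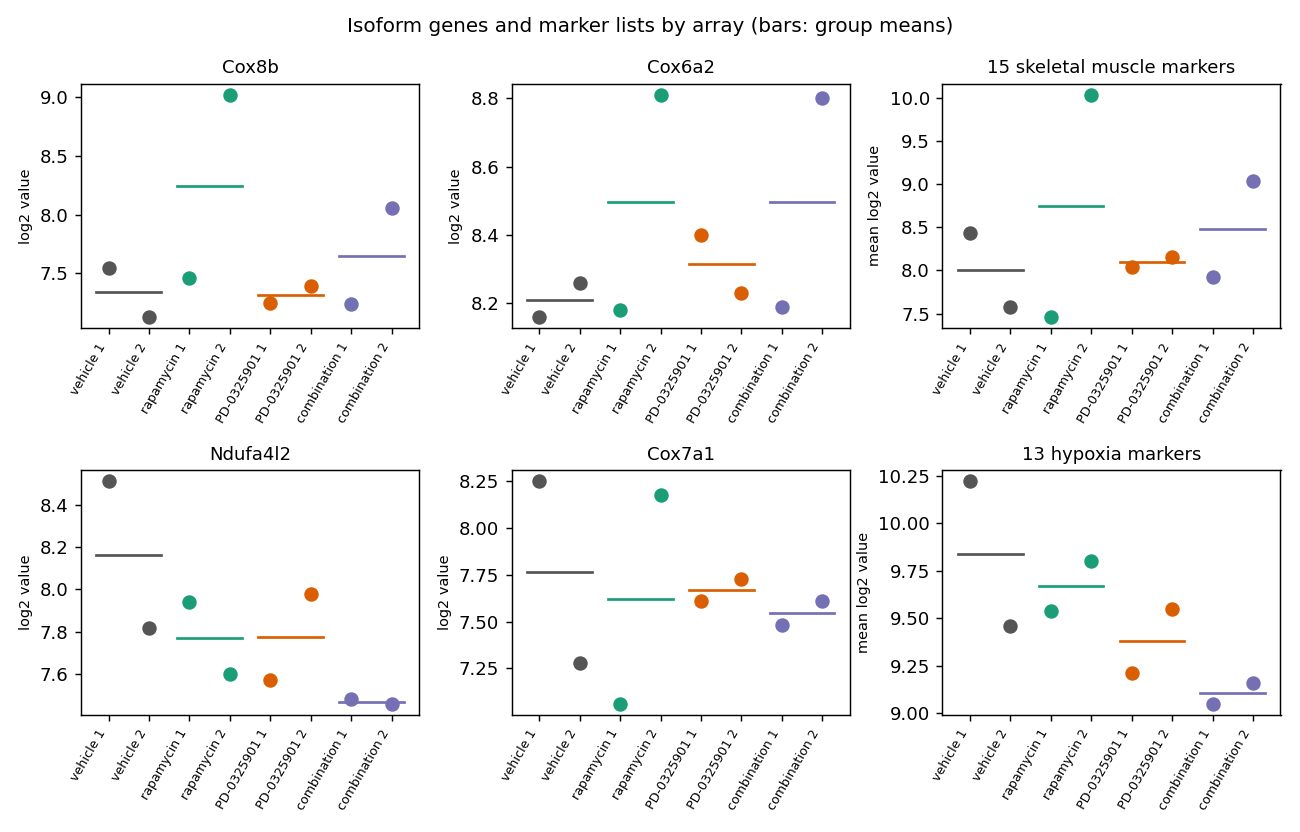
Log2 value (y axis) by array for 4 isoform genes of complex IV, and mean log2 value of 15 skeletal muscle and 13 hypoxia markers; points are arrays, bars are group means. Cox8b and Cox6a2 are high in rapamycin array 2 and combination array 2, where the muscle markers are also high, and Ndufa4l2 and the hypoxia markers are lowest in the combination arrays.

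The remaining genes of the pathway gave no calls either. Of 36 further assembly factors 23 were lower with the combination (median -0.09), with 3 higher and 3 lower at an unadjusted p under 0.05. For this comparison 53.7% of all genes were lower, and 5.08% were higher and 4% lower at that p, which is the background for this and the next lists. Among them Surf1, an assembly factor of cytochrome c oxidase, had 0.63 (SE 0.16) and Atpaf1, an assembly factor of the ATP synthase, -0.77 (SE 0.21). All 16 measured genes of the citric acid cycle and pyruvate dehydrogenase were below vehicle with the combination (median -0.30, 2 at an unadjusted p under 0.05, beside 4% of all genes), with Mdh2 at -0.54 (SE 0.18) and Pdha1 at -0.50 (SE 0.17). Their mean centred values were 0.28 and -0.02 with vehicle and -0.04 and -0.26 with the combination; the subunits too were highest in vehicle array 1 and lowest in combination array 2. Carriers of electrons and genes of ubiquinone synthesis (15, among them Cyc1, a complex III subunit outside the naming pattern) had a median of -0.21, with 12 lower. The 7 adenine nucleotide, phosphate and anion carriers had a median of -0.24, with 4 lower. Of the genes on mitochondrial DNA 2 were measured, ND3 and COX2, with differences of -0.22 (SE 0.18) and -0.04 (SE 0.13).

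The regulators differed among themselves. Ppargc1a, which encodes PGC-1alpha, was 6.87 and 6.71 with vehicle, 7.82 and 8.55 with rapamycin, 7.05 and 7.04 with PD-0325901, and 7.80 and 7.47 with the combination. All 4 arrays with rapamycin lay above the 4 without it, as they did for 1.41% of all genes. The main effect of rapamycin was 0.99 (SE 0.18, limma adjusted p = 0.752), and 0.81 to 1.18 when single arrays were left out. Ppargc1a was below the median gene level of 8.25 in every array but rapamycin array 2. Rapamycin array 2, its highest, and combination array 2 had the highest mean centred values of the skeletal muscle markers (1.70 and 0.71), and rapamycin array 1 that of the adipocyte markers (1.75, beside -0.25 and -0.27 in the combination arrays); their part was not tested. Pprc1, a PGC-1 related coactivator, had a rapamycin main effect of -0.42 (SE 0.12). Of the 19 regulators, 16 were lower with the combination (median -0.21), 4 of them and 2 higher ones at an unadjusted p under 0.05, and 0 passed (53.7% of all genes lower, 4% lower and 5.08% higher at that p). Tfam, which packages mitochondrial DNA and takes part in starting its transcription, had -0.53 (SE 0.15).

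Probe sets of 1 gene mostly had differences of the same sign. Of the 17 members with several probe sets, the signs matched within the gene for 14 with rapamycin, 16 with PD-0325901 and 16 with the combination. Atp5l had 6 probe sets, all between -0.19 and -0.15 for the combination. Many of these genes have processed pseudogenes with near-identical sequence, so that such probe sets may read the same transcripts, and the chosen probe set may not lie at the gene itself.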

How the data were processed

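RNA purified with Trizol and RNeasy was amplified with a NuGEN Applause WT-Amp ST kit, and the label was biotin, per the labels' protocols. The values deposited by the authors are log2 expression, 1 per probe set and array, a scale read from their range (3.36 to 14.36). Software, background correction and normalization: not given in the sources used here. Of 35512 probe sets 1 was empty, 21789 had 1 gene symbol in the platform annotation, 1621 several and 12101 none. The probe set of highest mean stood for a gene, giving 19938 genes, and low values were kept. Entrez IDs of 21698 probe sets matched the reference table and changed 0 symbols. Array medians were 7.79 to 7.90.

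A limma 3.58.1 model (R 4.3.3) of 4 group means over all 8 arrays gave two-sided p-values, adjusted by Benjamini-Hochberg over all genes, with a threshold of 0.05. It was tested on simulated data whose set differences were larger than that of any member. That run therefore does not show whether differences of the size described here would be found. A difference is between group means on the log2 scale, and its SE is limma's. A main effect averages the difference for 1 drug without and with the other. The members, marker lists, motifs and naming rule were chosen with earlier results of these data known. The rule names the 3 members of smallest p per direction and comparison, core subunits, isoform pairs and up to 2 genes per other list. Members named for arrays that do not overlap, and Acta1, Adipoq, Ucp1, Cidea, Mfap5, Clec3b and Sox10, were singled out after their values were seen. With 2 arrays a group, their number limits the precision.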

Additional observations from a re-analysis of the deposited data

How the results depend on the processing

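The count of members passing the threshold was 0 in all 6 comparisons under each alternative run: leaving out each array, restricting members to complex subunits, fitting just the compared groups (not for the interaction), keeping genes above the median level (75 members), averaging the probe sets of a gene, quantile normalization, median centring, a trended robust prior, and a threshold of 0.1. Leaving out single arrays moved the member median from -0.24 to 0.05 for rapamycin, -0.10 to 0.09 for PD-0325901, -0.29 to -0.03 for the combination, -0.19 to -0.04 and -0.15 to 0.02 for the rapamycin and PD-0325901 main effects, and -0.23 to 0.07 for the interaction; the other alternatives moved it to between -0.19 and 0.01. With the array number as a replicate block 0 members passed in each comparison. The labels do not say whether the numbers pair the arrays, and pairing was not tested. Over all genes, the deviations of same-numbered arrays correlated between -0.28 and 0.18 over the 6 pairs of groups, with 1 pair over 0.1. Without vehicle array 2 the sign turned for Cox5b with rapamycin (0.27 to -0.01; range -0.01 to 0.55) and for Ndufa8 with the combination (0.24 to -0.08; range -0.08 to 0.55). With the combination the small differences of Uqcrfs1 (-0.04; -0.14 to 0.05), Ndufs3 (0.08; -0.24 to 0.41), Sdhc (-0.04; -0.24 to 0.16), Cox5b (0.12; -0.16 to 0.41) and Cox7a2 (-0.15; -0.40 to 0.09) also changed sign when vehicle or combination arrays were left out, with Ndufs3 at -0.09 without vehicle array 2, Sdhc at 0.01 without vehicle array 2, and Cox7a2 at 0.05 without vehicle array 1; the cause was not tested. A group left with 1 array was assumed to vary like the others. The alternatives for Ppargc1a were added after its values were seen. Signal over background could not be judged, as the table holds no detection call.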
